A study of Mus musculus with 5 samples.

Results

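The probe sets described here each carry the names of several genes. On a short-oligonucleotide array a probe set is a group of 25-base probes read as 1 signal, and in closely related genes, in pseudogenes copied from a transcript or in genes that share an exon the same probes can bind RNA from more than 1 locus. The members were chosen by 2 criteria, a symbol field in the platform annotation that lists at least 2 gene symbols and a mean signal over all 5 arrays of 500 or more, among probe sets that are not array controls. This gave 265 probe sets of 12422 non-control probe sets, or of 7514 at that signal, the others being 6731 with 1 symbol and 518 with none listed. A value belongs to the probe set and to all its symbols together, and none is assigned to 1 of the genes.

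RNA from mouse peritoneal macrophages, phagocytes of the peritoneal cavity, was measured on 5 MG-U74Av2 arrays. The poly IC plus ethanol group (2 arrays, each a pool of mice) received 0.1 mg poly IC per mouse and 6 g/kg ethanol as an acute oral dose. The poly IC group (2 arrays, each a pool) received poly IC, with the dose of 0.1 mg per mouse given for the second pool only. All treated mice were females of a C57Bl/6 x C3H F1 cross aged 12 weeks, while the label of the single naive array gives no sex, age or pool. There was no group given ethanol alone. Poly IC imitates viral double-stranded RNA, which macrophages detect through receptors that switch on interferon and its target genes. The series asks how ethanol alters that induction.

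Replication here meant 2 pools per treated group, so the tests measured the spread between pools, and the naive array was assumed to vary like the others. In such bulk samples fewer cells of a type and less RNA per cell cannot be told apart. Markers of other cells moved with treatment. The summed signal of 7 B cell markers was 107792 and 108148 with poly IC plus ethanol, 75607 and 65702 with poly IC, and 212153 in the naive array. The sum of 7 neutrophil markers was 18219 and 18502 with poly IC plus ethanol, 95362 and 64655 with poly IC, and 2686 in the naive array, with Mpo below the unspiked controls on all arrays. On the treated arrays most of that sum came from S100a8 and S100a9. Elane did not follow it, at 229 and 797 with poly IC against 726 in the naive array. Of the 6 neutrophil markers tested, 4 were higher under poly IC than in the naive array. The 7 macrophage markers summed to between 181133 and 204247 on every array, with 2 of them, Mertk and Gata6, lower under poly IC than in the naive array. Gata6 read 1851 and 2188 with poly IC plus ethanol, 1169 and 1531 with poly IC, and 7218 in the naive array. It was also lower with poly IC plus ethanol than in the naive array. The 6 T and NK cell markers measured summed to 1536 and 1825 with poly IC plus ethanol, 1505 and 1232 with poly IC, and 3266 in the naive array. The 5 mast cell markers summed to 9945 and 9834 with poly IC plus ethanol, 15659 and 6226 with poly IC, and 9617 in the naive array. Cd3e, Cd8a, Ncr1 and Mcpt4, of these cells, lay below those controls throughout. Of the markers of these cells that could be tested, 1 for T and NK cells and 3 for mast cells, 0 passed in any of the 3 limma comparisons. The 18S 3′ control signal stood at 66548 on the second poly IC array, against 5113 to 19415 on the other 4.

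The members fell into 3 kinds by their names. In 149, at most 1 named gene stood beside predicted genes (Gm or LOC symbols) or pseudogenes (symbols with -ps), as in Gm13777/Rplp1. In 84, at least 2 named genes shared a stem, the first 3 letters, as in Tgtp2/Tgtp1 or H2-T9/H2-T22/H2-T10. Further names in such a set could differ. In 32 the names differed, as in Sco2/Tymp. Pseudogenes that arise by reverse transcription land anywhere in a genome, whereas tandem duplicates stay side by side. Of the 140 members of the first kind with at least 2 symbols placed in the RefSeq table, 36 had all of them on 1 chromosome. This held for 64 of 84 members with a shared stem, 39 of them with gaps under 100000 bases, and for 22 of 32 members with different names, all 22 of them within that distance or overlapping. The members named 580 genes in 226 different symbol sets, and 185 held 2 symbols, 61 held 3 to 5 and 19 held 6 or more, up to the 14 of a set of histone H2A genes. A suffix _f_ or _s_, with which the maker marked probes shared within a sequence family or between transcripts, was carried by 19.6% and 12.1% of members, against 7.38% and 2.78% of one-symbol probe sets.

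The members were selected on this mean signal, so its values are a description only. Their median mean signal was 4671 array units, against 2165 for one-symbol probe sets held to the same minimum, and 35 members (13.2%) reached 50000, against 94 one-symbol probe sets (1.40%). The brightest included the lysozymes Lyz1/Lyz2, with 157044 and 171169 under poly IC plus ethanol, 157966 and 172837 under poly IC, and 140252 in the naive array. Complement C4a/C4b read 94135 and 88768 with poly IC plus ethanol, 90592 and 96673 with poly IC and 81595 in the naive array. At the threshold, the last members inside were Serpinb9h/Serpinb9g/Serpinb9e/Serpinb9f (mean 512), Klrb1b/Klrb1c (524) and Oaz1-ps/Oaz1 (527), and the first outside were an Rps12 set (489), Prps1l3/Prps1 (481) and Serpina1d/Serpina1c/Serpina1b/Serpina1a (475). In 17 members at least 1 group mean was under 500, most often in the naive array (11 members).

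**Figure D1:**
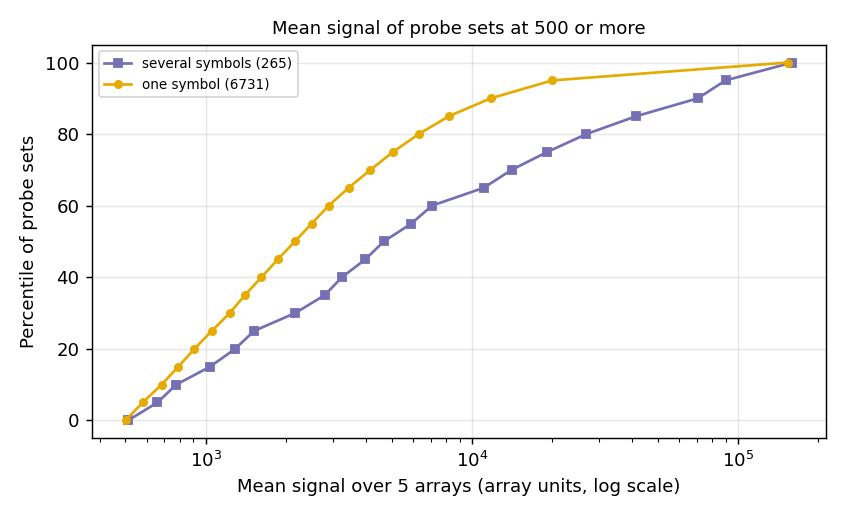
Mean signal over the 5 arrays (log scale) against percentile of probe sets, for the 265 probe sets naming several symbols (squares) and the 6731 with 1 symbol (circles). The curve of the several-symbol probe sets lies to the right, with medians of 4671 and 2165.

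Promoters show how far the genes under 1 name can differ outside the probed transcript. RefSeq windows of GRCm38.p6, 250 bases before to 50 after each start, were found for 298 of the 580 genes. The following 8 are shown because the members that name these genes carry the results below: the Tgtp pair and Ifi203 are named by interferon-inducible members and H2-T22 by the called class I members, the Slfn pair is named by the member with the smallest adjusted p for ethanol, and the haemoglobin pair is near-identical. Capitals mark letters matching, on either strand, the core of the interferon-stimulated response element (ISRE; GAAA and GAAA parted by any 2 bases) or an NF-kB pattern (GGGA and CC parted by any 4 bases). The 2 patterns do not overlap in the windows shown, and H2-T22 has 2 NF-kB matches that overlap each other.
Tgtp2 (chr11:49064163-49064462, minus strand): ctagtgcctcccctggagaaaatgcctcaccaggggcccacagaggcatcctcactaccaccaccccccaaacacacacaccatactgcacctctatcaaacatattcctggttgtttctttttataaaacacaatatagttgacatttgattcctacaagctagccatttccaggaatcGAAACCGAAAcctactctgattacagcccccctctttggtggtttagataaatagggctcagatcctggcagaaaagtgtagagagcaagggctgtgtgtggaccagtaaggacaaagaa
Tgtp1 (chr11:48992197-48992496, minus strand): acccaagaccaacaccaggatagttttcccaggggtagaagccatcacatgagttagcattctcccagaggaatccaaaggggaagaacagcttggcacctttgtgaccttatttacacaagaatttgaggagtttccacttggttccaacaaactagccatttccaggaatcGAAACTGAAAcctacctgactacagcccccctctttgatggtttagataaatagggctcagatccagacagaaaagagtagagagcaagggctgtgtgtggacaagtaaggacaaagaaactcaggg
Ifi203 (chr1:173942443-173942742, minus strand): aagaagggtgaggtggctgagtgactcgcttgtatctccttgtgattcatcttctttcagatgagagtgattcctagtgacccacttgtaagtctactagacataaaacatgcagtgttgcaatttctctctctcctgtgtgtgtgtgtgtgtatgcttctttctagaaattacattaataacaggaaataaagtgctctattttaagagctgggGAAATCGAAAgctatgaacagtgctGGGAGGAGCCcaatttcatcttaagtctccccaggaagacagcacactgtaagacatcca
H2-T22 (chr17:36042693-36042992, minus strand): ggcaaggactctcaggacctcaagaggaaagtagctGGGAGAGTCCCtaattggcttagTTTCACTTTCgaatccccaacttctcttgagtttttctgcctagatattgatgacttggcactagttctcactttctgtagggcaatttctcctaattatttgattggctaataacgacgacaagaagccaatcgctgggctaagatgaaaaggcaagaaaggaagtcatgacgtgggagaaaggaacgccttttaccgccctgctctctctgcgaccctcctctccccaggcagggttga
Slfn4 (chr11:83174936-83175235, plus strand): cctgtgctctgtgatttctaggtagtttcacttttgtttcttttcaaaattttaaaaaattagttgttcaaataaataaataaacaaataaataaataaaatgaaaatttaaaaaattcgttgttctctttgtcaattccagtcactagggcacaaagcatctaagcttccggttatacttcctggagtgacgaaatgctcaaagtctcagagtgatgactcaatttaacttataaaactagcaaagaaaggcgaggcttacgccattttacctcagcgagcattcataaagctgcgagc
Slfn3 (chr11:83191080-83191379, plus strand): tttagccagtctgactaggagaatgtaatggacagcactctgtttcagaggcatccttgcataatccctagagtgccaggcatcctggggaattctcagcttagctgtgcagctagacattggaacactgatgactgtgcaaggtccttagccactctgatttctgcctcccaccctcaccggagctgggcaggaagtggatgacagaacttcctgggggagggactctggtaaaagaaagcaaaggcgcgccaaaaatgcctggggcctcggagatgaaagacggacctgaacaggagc
Hba-a2 (chr11:32296242-32296541, plus strand): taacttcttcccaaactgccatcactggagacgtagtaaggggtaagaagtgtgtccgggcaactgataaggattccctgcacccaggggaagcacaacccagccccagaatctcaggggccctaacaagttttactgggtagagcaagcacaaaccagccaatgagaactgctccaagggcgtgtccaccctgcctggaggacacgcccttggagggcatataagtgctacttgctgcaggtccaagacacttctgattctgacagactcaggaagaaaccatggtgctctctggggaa
Hba-a1 (chr11:32283422-32283721, plus strand): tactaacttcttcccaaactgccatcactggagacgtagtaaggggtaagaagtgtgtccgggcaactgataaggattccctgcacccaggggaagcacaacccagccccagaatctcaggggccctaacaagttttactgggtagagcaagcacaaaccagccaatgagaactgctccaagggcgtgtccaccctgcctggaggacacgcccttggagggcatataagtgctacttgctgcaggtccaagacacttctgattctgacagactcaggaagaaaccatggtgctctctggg
The ISRE letters began 70 bases before the start of Tgtp2, 77 before that of Tgtp1, 35 before that of the Ifi203 window and 191 before that of H2-T22. They are in 1131 of 32851 promoters of this length (3.44%), and in 20 of the 330 windows of members' genes (6.06%). The NF-kB letters are in 20.7% of all promoters and in 28.5% of the members' windows. The 2 haemoglobin windows were 99.0% identical, the 2 Tgtp windows 74.7% and the 2 Slfn windows 58.0%. Median identity was 60.0% over 242 gene pairs from members of the shared-stem kind, and 58.8% over 16 pairs from those with different names. Unrelated genes were not aligned, so identity near these medians cannot be read as shared sequence. Neither pattern occurred in the Slfn and Hba windows, which says only that these letters are not there.

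With ethanol added to poly IC, several members of the antiviral response were lower, and a group that includes the Noct and zinc finger names was higher. Between poly IC plus ethanol and poly IC, 19 of 265 members passed the test (moderated linear model, adjusted p under 0.05), 9 higher and 10 lower. This is 7.17% of members, beside 8.0% of all 7514 probe sets tested (4.26% higher and 3.74% lower), so the share is near the background. With arrays centred on their medians the split was 6 higher and 11 lower. The members' median difference in log2(signal + 250) was 0.00, against 0.07 over all tested. The lower members were led by Ifi202b, Sco2/Tymp, Slfn4/Slfn3 and Tgtp2/Tgtp1, at -0.90 to -1.38 log2 units. All other lower members lay between -0.46 and -0.66. Fold values below are ratios of mean signals.

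Interferon-inducible genes gave 2 of 5 members lower and 0 higher. Tgtp2/Tgtp1, GTPases of the immunity-related family that act against intracellular pathogens, read 25503 and 22241 with poly IC plus ethanol, 45736 and 43825 with poly IC and 1792 in the naive array. Both ethanol arrays lay below both poly IC arrays and far above the naive one. The difference was -0.90 ± 0.12 (SE), 1.88-fold lower, with an adjusted p of 0.00521.

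LOC100044068/Ifi202b, a DNA-binding protein of the p200 family, read 2195 and 1856 with poly IC plus ethanol, 7545 and 4213 with poly IC and 222 in the naive array. The groups did not overlap, and the poly IC arrays differed most from each other. The difference was -1.38 ± 0.26, 2.90-fold lower (adjusted p = 0.0175). The other 3 members of the list, all below zero, did not pass the test. They were LOC100862473/Ifi203-ps/Ifi203 (-0.50, adjusted p = 0.109), Ly6c2/Ly6c1, surface antigens of monocytes (-0.29, adjusted p = 0.274), and the p200 set Mndal/Ifi211/Ifi205/Ifi204 (-0.27, adjusted p = 0.166). The list median was -0.50, against 0.07 over all tested.

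Slfn4/Slfn3 belong to the schlafen family, which is interferon-responsive in myeloid cells. This member read 19817 and 18668 with poly IC plus ethanol, 39469 and 44368 with poly IC and 6735 in the naive array. Arrays of a group stood close together and the groups did not overlap. The difference of -1.11 ± 0.12, 2.18-fold lower (adjusted p = 0.00179), had the smallest adjusted p of the 265 members in this comparison. It was the single call of the 19 that was kept whichever 1 treated array was left out, at -1.20 to -1.03.

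MHC class I heavy chains present peptides to T cells, and the H2-T names are non-classical forms. In 2 of 8 class I members the ethanol signal was lower, and both carry the set H2-T9/H2-T22/H2-T10. The first, 93865_s_at, read 13432 and 12537 with poly IC plus ethanol, 18962 and 18636 with poly IC and 7088 in the naive array. The second, 101876_s_at, read 21737 and 19789 with poly IC plus ethanol, 29176 and 30536 with poly IC and 12774 in the naive array. Both placed the ethanol arrays between the naive and the poly IC arrays, at -0.53 ± 0.13 (adjusted p = 0.0383) and -0.52 ± 0.12 (adjusted p = 0.0303). Both calls were lost under quantile normalization, without the filter on signal and without either poly IC array, and that of 93865_s_at also without the second ethanol array. The other 6 class I members ranged from -0.24 to 0.23 and did not pass.

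Further lower members act at other steps of the response or outside it. Lilrb4a/Lilr4b, inhibitory and related receptors of myeloid cells, read 32123 and 24989 with poly IC plus ethanol, 43318 and 41036 with poly IC and 11114 in the naive array (-0.57 ± 0.14, adjusted p = 0.0387). Psme2b/Psme2, the beta subunit of the proteasome activator PA28 and its relative, read 16180 and 15800 with poly IC plus ethanol, 21982 and 22093 with poly IC and 11243 in the naive array (-0.46 ± 0.12, adjusted p = 0.0478). In both the ethanol arrays again lay between the other groups.

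LOC100862468/Snu13, a spliceosome and small nucleolar RNA-binding protein, read 11190 and 10586 with poly IC plus ethanol, 17331 and 17303 with poly IC and 10571 in the naive array. The ethanol arrays lay close to the naive one, and the difference from poly IC was -0.66 ± 0.12 (adjusted p = 0.017). Rasl2-9/Ran, the nuclear transport GTPase with a related gene, had the same layout, with 17365 and 14972 with poly IC plus ethanol, 22981 and 23412 with poly IC and 16829 in the naive array (-0.52 ± 0.12, adjusted p = 0.0396).

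Sco2/Tymp joins neighbouring genes of chromosome 15, a copper chaperone of cytochrome c oxidase and thymidine phosphorylase. It read 789 and 431 with poly IC plus ethanol, 2038 and 1646 with poly IC and 2072 in the naive array. Here the ethanol arrays lay below both other groups, and the second was under its brightest unspiked control. The difference from poly IC was -1.31 ± 0.26, 3.02-fold lower (adjusted p = 0.0206).

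**Figure D2:**
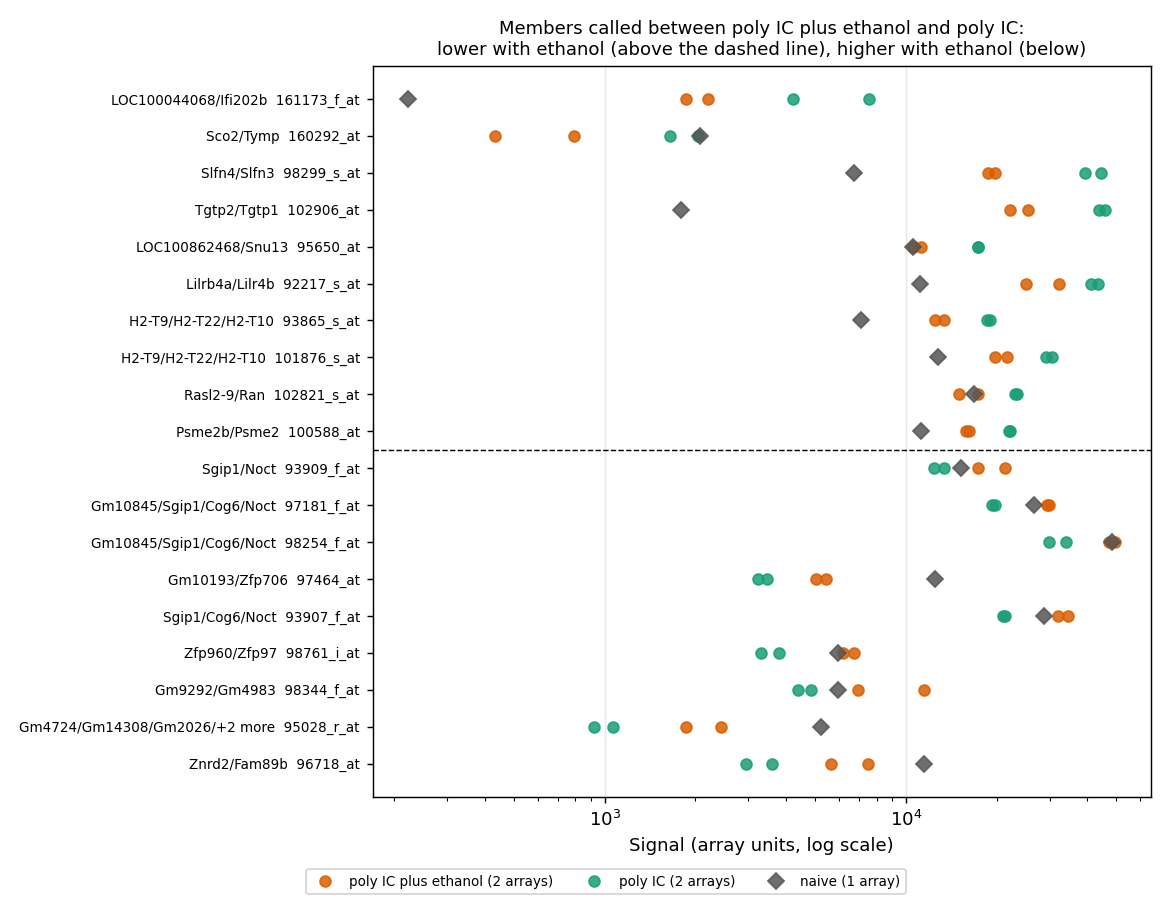
Signals (log scale) of the 19 members that passed the test between poly IC plus ethanol and poly IC, 1 row per probe set and 1 point per array. The ethanol and poly IC points do not overlap in any row, and in the rows led by Tgtp2/Tgtp1 and H2-T9/H2-T22/H2-T10 the ethanol points lie between the poly IC and naive points.

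Higher with ethanol were 5 members naming zinc finger or predicted genes or Znrd2/Fam89b, and 4 naming Noct. Znrd2/Fam89b, neighbours on chromosome 19, read 7474 and 5634 with poly IC plus ethanol, 2935 and 3586 with poly IC and 11476 in the naive array (0.95 ± 0.19, adjusted p = 0.019). The predicted genes Gm4724/Gm14308/Gm2026/Gm14434/Gm14325, all on chromosome 2, read 1865 and 2433 with poly IC plus ethanol, 924 and 1068 with poly IC and 5236 in the naive array (0.94 ± 0.20, adjusted p = 0.0261). In both members the ethanol arrays lay above poly IC and below naive.

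Zfp960/Zfp97, zinc finger genes, read 6185 and 6730 with poly IC plus ethanol, 3795 and 3314 with poly IC and 5941 in the naive array, so the ethanol arrays stood at or above the naive level (0.82 ± 0.16, adjusted p = 0.0182). Gm10193/Zfp706 on 97464_at read 5030 and 5446 with poly IC plus ethanol, 3447 and 3228 with poly IC and 12469 in the naive array, with ethanol between the other groups (0.61 ± 0.15, adjusted p = 0.0437). This call was kept in 4 of 13 alternatives, and the other probe sets with the same names did not pass. Gm9292/Gm4983 read 6940 and 11465 with poly IC plus ethanol, 4854 and 4377 with poly IC and 5958 in the naive array, with the wider spread on the ethanol side (0.92 ± 0.22, adjusted p = 0.0406).

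Noct encodes nocturnin, a circadian phosphatase, Sgip1 an endocytic adaptor and Cog6 a Golgi tethering subunit, from chromosomes 3, 4 and 3. Gm10845/Sgip1/Cog6/Noct on 98254_f_at read 47423 and 49523 with poly IC plus ethanol, 29878 and 33971 with poly IC and 48485 in the naive array. The ethanol arrays lay on either side of the naive value and the poly IC arrays below it (0.60 ± 0.10, adjusted p = 0.0125). Sgip1/Cog6/Noct on 93907_f_at (0.64), a second probe set with the 4 names (97181_f_at, 0.59) and Sgip1/Noct on 93909_f_at (0.58) gave like differences, with adjusted p between 0.0103 and 0.0412. A second Sgip1/Noct probe set, 93908_f_at, did not pass (0.50, adjusted p = 0.0937). These 5 are _f_ probe sets of overlapping names and do not count as separate genes.

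The summed neutrophil markers were also lower with poly IC plus ethanol than with poly IC, with 2 of the 6 tested called lower, and their part in the lower members was not tested. The number of ethanol calls changed with the array left out. Leaving out 1 treated array also leaves the spread to be estimated from the other treated pair alone. With 1 array left out, the difference ranged from -0.70 to -0.62 for LOC100862468/Snu13 and from -1.78 to -0.98 for LOC100044068/Ifi202b. The part of the spread estimate in the lost calls was not tested. Without the first poly IC array 2 members were called (Slfn4/Slfn3 and Tgtp2/Tgtp1), without the second 3 (Slfn4/Slfn3, Ifi202b and 98254_f_at), and without the first ethanol array 34. With a variance prior that ignores signal level, limma called 0 members, with 36 at an unadjusted p under 0.05 against 52 in the reported fit.

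Far more members differed between poly IC and the single naive array. In poly IC macrophages 4 of 5 interferon-inducible, 4 of 8 MHC class I and both haemoglobin members were higher than in the naive array, while 8 of 13 immunoglobulin and 4 of 7 histone members were lower. Of 265 members 87 passed the test, 34 higher and 53 lower (32.8%, beside 29.0% of all tested, 11% higher and 18% lower). Among the 248 members at 500 or more in every group, 85 passed, 33 higher and 52 lower. The members' median was -0.11 and that of all probe sets -0.13. When each array was centred on its median, which moved the median of all probe sets to 0.07, the split became 41 higher and 35 lower, so the balance of directions depended on the scaling. Without the first poly IC array 56 members were called and without the second 51.

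Interferon-inducible names rose in 4 of 5 members, at every scaling tried. Tgtp2/Tgtp1, whose arrays are given above, rose 25.0-fold (4.46 ± 0.15, adjusted p = 1.32e-07) and LOC100044068/Ifi202b at least 19.5-fold, since its naive signal lay below the unspiked controls (3.64 ± 0.32, adjusted p = 5.94e-05). Mndal/Ifi211/Ifi205/Ifi204 read 95031 and 91154 with poly IC against 26860 in the naive array, and was bright in both (1.78 ± 0.13, 3.47-fold). LOC100862473/Ifi203-ps/Ifi203 read 30545 and 29502 with poly IC, 3.13-fold above 9589 in the naive array. Ly6c2/Ly6c1 did not pass (0.26, adjusted p = 0.315).

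Class I names rose in 4 of 8 members, with a list median of 0.65 that was the same without either ethanol array. The ethanol arrays enter this comparison through the estimate of spread only. The count was 2 without either poly IC array, 7 without either ethanol array, 3 under quantile normalization and 6 with centred arrays. The H2-T9/H2-T22/H2-T10 pair gave the largest of these differences, 1.38 ± 0.15 and 1.21 ± 0.14, and H2-T3/H2-T18, of which H2-T3 is the thymus leukaemia antigen, read 3042 and 3248 with poly IC against 1671 in the naive array (0.82 ± 0.21, adjusted p = 0.0182). H2-K2/H2-Q2 passed narrowly, with 62973 and 67664 with poly IC against 47088 in the naive array (0.47 ± 0.15, adjusted p = 0.0444). It kept its call in 6 of 11 alternatives. The call was lost under quantile normalization, without the filter on signal, with a variance prior without trend and without either poly IC array. The brightest class I member, H2-Q9/H2-Q7/H2-Q5, read 74211 and 80332 with poly IC and 61857 in the naive array (adjusted p = 0.0519). The single class II member, H2-DMb2/H2-DMb1, chaperones of peptide loading, was lower, with 6456 and 5308 with poly IC against 13750 in the naive array (-1.20 ± 0.21, adjusted p = 0.00329). B cells also express these class II genes, and their 7 markers were all lower in this comparison. The part of those cells in the result was not tested.

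The Bcl2a1 and Slfn members were among the largest rises. Bcl2a1d/Bcl2a1c/Bcl2a1a, the anti-apoptotic A1 proteins induced through NF-kB, read 62076 and 65806 with poly IC against 6204 in the naive array, 10.3-fold higher (3.31 ± 0.13, adjusted p = 2.67e-07). With ethanol the same member read 52729 and 48073, below both poly IC arrays, which did not pass (-0.34, adjusted p = 0.0833). The probe set that adds Mthfs, a folate enzyme, and Bcl2a1b to these names rose 4.73-fold, and Slfn4/Slfn3 rose 6.22-fold (2.59 ± 0.15). Of the 6 innate receptor members, Lilrb4a/Lilr4b rose 3.80-fold (1.90 ± 0.17) and Ceacam2/Ceacam1 on 102804_at, an adhesion molecule, was lower (-0.51, adjusted p = 0.0349), while the other 4 lay between -0.82 and -0.11 and did not pass. The list median was -0.24.

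Gm7334/Btg3, an antiproliferative factor, read 12190 and 9407 with poly IC against 3040 in the naive array (1.74 ± 0.24, adjusted p = 0.000794). Both probe sets of a 7-name set ending in Csprs rose, by 1.67 and 1.49, as did a 6-name set with Csprs, by 0.88. Csf2rb2/Csf2rb, the shared receptor chain of IL-3, IL-5 and GM-CSF, read 3229 and 3179 with poly IC against 1835 in the naive array (0.73 ± 0.21, adjusted p = 0.0308), a call lost without either poly IC array. Psme2b/Psme2 (0.96) and LOC100862468/Snu13 (0.70) also rose, the Snu13 call likewise being lost without either poly IC array. Neutrophil marker sums, given above, moved the same way as these members, and their part in the rises was not tested.

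Both haemoglobin members rose. Hbb-bt/Hbb-bs/Hbb-b2/Hbb-b1, the adult beta globins, read 28284 and 9174 with poly IC plus ethanol, 31395 and 49163 with poly IC and 1057 in the naive array. All treated arrays lay above the naive one, and the difference of poly IC from naive was 4.92 ± 0.52, 38.1-fold (adjusted p = 0.000196). Hba-a2/Hba-a1, the alpha globins of the near-identical promoters shown above, read 3276 and 4206 with poly IC plus ethanol, 3526 and 6460 with poly IC and 1442 in the naive array (poly IC against naive 1.57 ± 0.33, adjusted p = 0.00705). The summed signals of the 4 red cell markers measured, of 7 listed, 2 of which are one-symbol globin probe sets, were 20040 and 11279 with poly IC plus ethanol, 18606 and 34217 with poly IC and 1855 in the naive array. On the treated arrays most of that sum came from the globin probe sets, so it largely repeats the haemoglobin result. Slc4a1 did not follow it, at 506 and 788 with poly IC plus ethanol, 281 and 171 with poly IC and 712 in the naive array. Alas2 lay below the brightest unspiked control on the second array of each treated group and on the naive array. Slc4a1 and Alas2 were not tested. Between the treated groups neither haemoglobin member passed, although Hbb stood at -1.27 (adjusted p = 0.112). The first ethanol array was the high one, and without it this value was -2.07, which then rested on 1 ethanol array. The median of the 2 members was -0.81 with all arrays, -1.12 without the first ethanol array and -0.49 without the second.

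Immunoglobulin names fell in 8 of 13 members and rose in 1, with a list median of -0.84. Without the second poly IC array 5 fell. Iglc1/Iglv1, lambda light chain segments, read 2115 on each of the 2 poly IC arrays against 9343 in the naive array, 4.42-fold lower (-2.02 ± 0.22, adjusted p = 0.00021). Igkv4-59/Igkv4-72/Igkc, kappa segments, read 9920 and 14726 with poly IC against 27635 in the naive array (-1.18 ± 0.23, adjusted p = 0.00479). Ighv1-53/Ighv1-72/Ighm, of the IgM heavy chain, read 2499 and 2298 with poly IC against 5441 in the naive array (-1.10 ± 0.21, adjusted p = 0.00475).

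The member that rose is the brightest of the list. Igkv6-23/Igkv4-53/Igkv8-30/Igkj1/Igkc read 101397 and 135711 with poly IC against 75729 in the naive array (0.63 ± 0.16, adjusted p = 0.017). It was called at every scaling tried and with any 1 array left out, but not without the filter on signal or with a variance prior without trend. Between poly IC plus ethanol and poly IC 0 of the 13 members passed the limma test, with 1 at an unadjusted p under 0.05 and a median of -0.07. Of the 7 B cell markers measured by one-symbol probe sets, all 7 fell with poly IC and 4 were higher with ethanol than with poly IC alone. These lymphocyte transcripts were present in RNA labelled as macrophage, and the part of B cells in the immunoglobulin values was not tested.

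**Figure D3:**
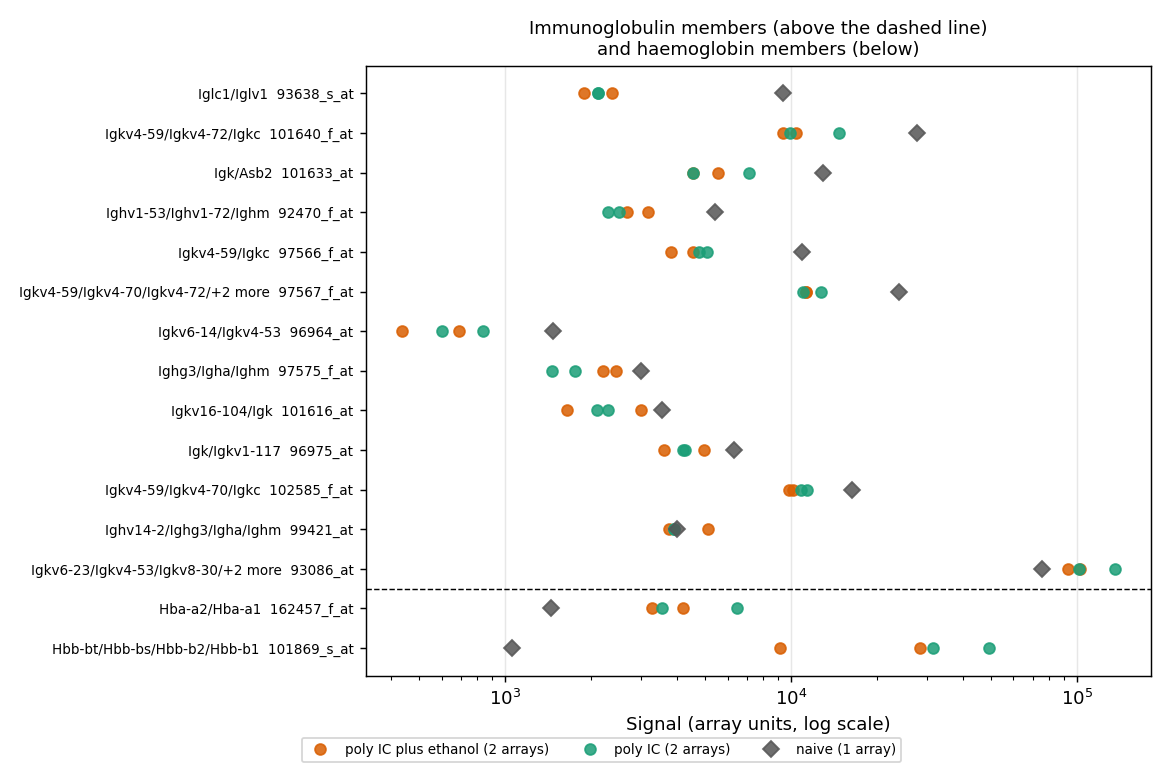
Signals (log scale) of the 13 immunoglobulin members (above the dashed line) and the 2 haemoglobin members (below it), 1 point per array. In 11 immunoglobulin rows the naive point lies to the right of all treated points, in the bottom row of that block, Igkv6-23/Igkv4-53/Igkv8-30/Igkj1/Igkc, to the left of them, and in both haemoglobin rows to the left.

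Replication-dependent histones, made mainly in S phase, were lower in 4 of 7 histone members. The 14-name set of H2A genes, H2ac23 to H2aw with Trim17, read 14519 and 14727 with poly IC against 45181 in the naive array (-1.61 ± 0.14, adjusted p = 5.64e-05). H2af-ps2/H2ac19/H2ac18 fell by 1.05 and H2bc8/H2bc6/H2bc4 by 0.78. The 12-name set of H3 genes was split, since 93023_f_at fell by 1.46, with 1027 and 719 with poly IC against 2809 in the naive array, while 96416_f_at stood at -0.09 (adjusted p = 0.775), with 2634 and 2647 with poly IC against 2831 in the naive array. The replication-independent set Gm12657/Gm6749/H3f3c/Gm10257/H3f3b/H3f3a was split too, with 100708_at higher at 0.66 ± 0.16 (63558 and 64444 with poly IC against 40357 in the naive array) and 100380_at at -0.38 (adjusted p = 0.283). The call of 100708_at was lost under quantile normalization, without the filter on signal and with a variance prior without trend.

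Other names of the lowest members cover transport, RNA and mitochondrial turnover. Zfp808/Zfp934, zinc finger genes, read 190 and 215 with poly IC, below the unspiked controls, against 2188 in the naive array, at least 6.06-fold lower (adjusted p = 0.00215). Its mean signal reached 500 through the naive array, and the call was also made without the filter on signal. Dynlt1a/Dynlt1c, dynein light chains, read 978 and 1243 with poly IC against 3734 in the naive array (-1.56 ± 0.26). Bnip3l-ps/Bnip3l, the mitophagy receptor Nix, read 2520 and 2062 with poly IC against 7094 in the naive array (-1.54 ± 0.24). The 3 members of 0610010K14Rik/Rnasek, of which Rnasek is ribonuclease kappa, and the 3 of Gm10193/Zfp706 were all lower, by 0.64 to 1.64 and by 0.88 to 1.83. Both members of Supt4b/Supt4a, a transcription elongation factor, were lower, by 1.34 and 1.51.

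Few housekeeping names passed. Of 35 ribosomal protein and translation factor members 0 were higher and 1 was lower between poly IC and naive, a probe set of the Rpl27a set at -0.46, with 31762 and 30846 with poly IC against 43257 in the naive array. The list median was -0.08, 3 had an unadjusted p under 0.05, and quantile normalization called 7 lower. With ethanol added to poly IC 0 of the 35 passed in limma, 0 had an unadjusted p under 0.05, and the median was 0.02. Gm8618/Rps23, of the small ribosomal subunit, read 120335 and 124023 with poly IC plus ethanol, 116443 and 115408 with poly IC and 114149 in the naive array.

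Of 12 energy metabolism members 1 was higher (Ndufs6b/Ndufs6 on 96292_r_at, 0.62) and 2 were lower (Ndufs5/Ndufs5-ps, -0.98, and Atp5c1-ps/Atp5c1, -0.65) in poly IC against naive, while the second Ndufs6b/Ndufs6 probe set stood at -0.12. Gapdh-ps15/Gm12070/Gapdh, of glycolysis, read 33791 and 26830 with poly IC plus ethanol, 29705 and 29581 with poly IC and 32206 in the naive array. In the 4 cytoskeleton members 0 passed between poly IC and naive in limma, with 1 at an unadjusted p under 0.05. Gm5620/Tuba1c/Tuba1b/Tuba1a, alpha tubulins, stood at 0.05 (adjusted p = 0.837) but was called lower under quantile normalization, at -0.37. At loci whose transcripts share exons, 2 of 3 protocadherin alpha members (9 names each) were higher, by 0.91 and 0.89, the first call lost without the first poly IC array and the second without either, and the Ugt1a set stood at -0.39 (adjusted p = 0.0915).

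**Figure D4:**
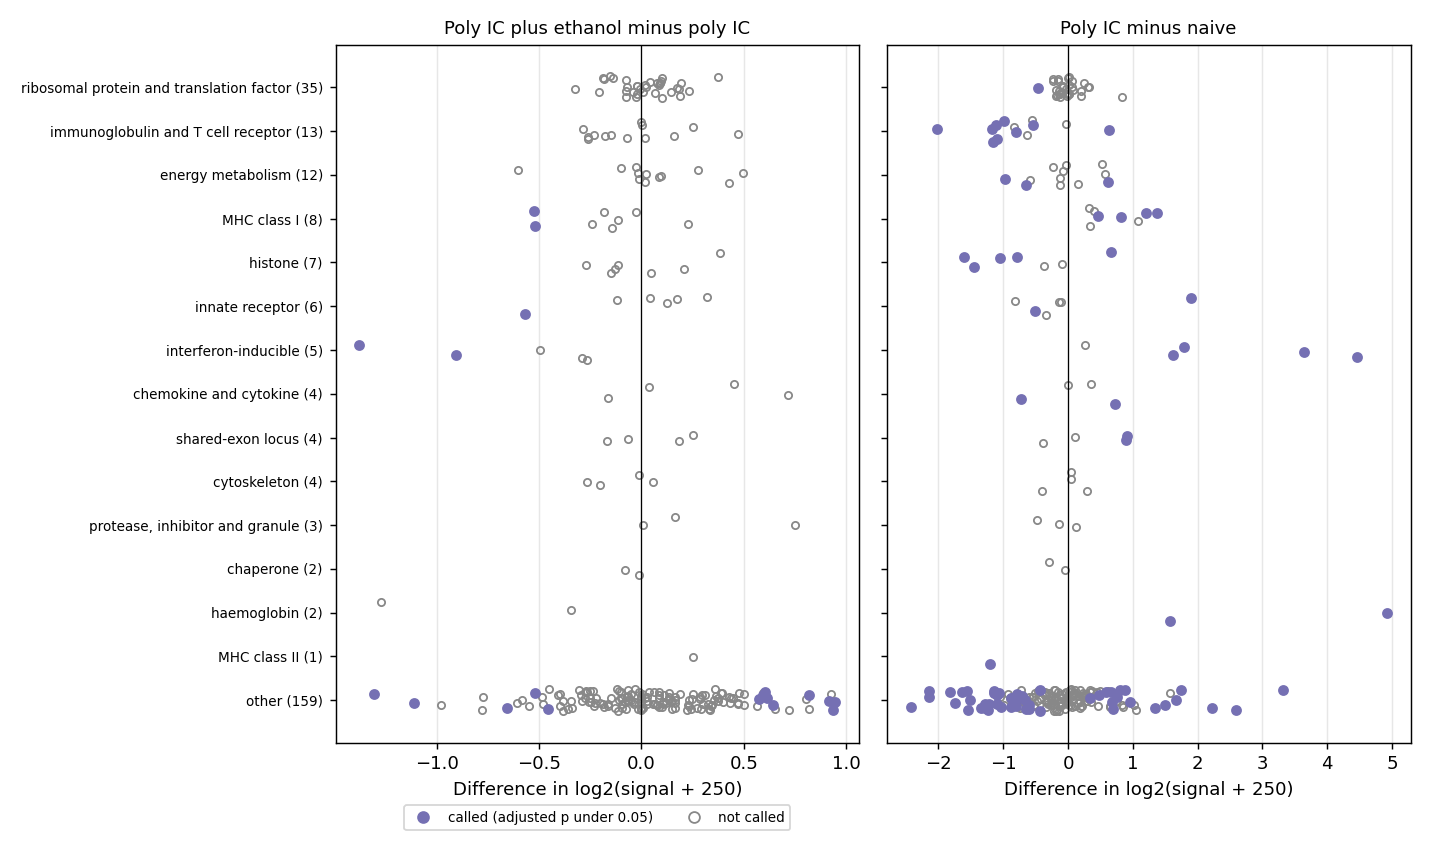
Differences in log2(signal + 250) of all 265 members by list, for poly IC plus ethanol minus poly IC (left) and poly IC minus naive (right), with the number of members in parentheses and called members filled. Interferon-inducible members lie left of zero in the left panel, with 2 of 5 called, and right of it in the right panel, with 4 of 5 called. Ribosomal members cluster near zero in both, and the 2 panels share the poly IC arrays.

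By kind, members with a shared stem passed between poly IC and naive in 42 of 84 cases, those with different names in 12 of 32 and those with predicted genes or pseudogenes in 33 of 149, beside 29.0% of all tested. Between poly IC plus ethanol and poly IC the counts were 7 of 84, 7 of 32 and 5 of 149, beside 8.0%. These shares are descriptions, as the kinds hold different gene families and 4 of the 7 ethanol calls with different names are the Noct sets.

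Poly IC plus ethanol against naive, which shares arrays with both comparisons above, called 55 members, 27 higher and 28 lower (20.8%, beside 14.7% of all tested, 7.67% higher and 7.01% lower). Tgtp2/Tgtp1 stood at 3.56, the Bcl2a1d/Bcl2a1c/Bcl2a1a member at 2.97 and LOC100044068/Ifi202b at 2.26. Of members not called between poly IC and naive, 4 were called here. Sco2/Tymp was lower, at -1.46 (adjusted p = 0.0163). Orm2/Orm1, acute-phase plasma proteins, read 2217 and 1097 with poly IC plus ethanol and 100 in the naive array, with 1395 and 411 under poly IC (2.38, adjusted p = 0.0224). Try10/Gm5409/Try4, trypsinogens, stood at 1.14 and H2-Q9/H2-Q7/H2-Q4/H2-Q1/H2-D1 at 1.31. One-symbol probe sets for names of that H2 member, of H2-Q4 (-0.10) and of H2-D1 (0.17, 0.15 and -0.10), were not called here. In the direct test of poly IC plus ethanol against poly IC, Sco2/Tymp passed and the other 3 of these 4 members did not (Orm2/Orm1 at 0.81 with an adjusted p of 0.332).

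For 69 members a one-symbol probe set reads a gene that the member also names, which gave 149 pairs with 92 one-symbol probe sets. In 74 pairs the member was called between poly IC and naive. In 63 of these the one-symbol probe set had the same sign, in 42 it was called the same way and in 5 it was called the opposite way. Between poly IC plus ethanol and poly IC, 17 pairs had a called member, with 13 of the same sign, 4 called the same way and 0 opposite. Pairs that share a probe set are not independent, and the 2 probe sets of a pair read the same arrays. Many of the poly IC pairs join immunoglobulin names, above all those of Ighv1-53/Ighv1-72/Ighm and Ighg3/Igha/Ighm. Most of the ethanol pairs join the called Noct members to the same Noct and Sgip1 probe sets.

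In 4 pairs the ethanol difference was called the same way in both probe sets. LOC100044068/Ifi202b stood at -1.38 and the one-symbol probe set of Ifi202b at -1.17 (adjusted p = 0.00414), Slfn4/Slfn3 at -1.11 and Slfn4 at -0.71 (adjusted p = 0.0103). Lilrb4a/Lilr4b stood at -0.57 and Lilr4b at -0.44 (adjusted p = 0.0434), and Rasl2-9/Ran at -0.52 and Ran at -0.59 (adjusted p = 0.0125). For the members higher with ethanol no partner was called. The 4 called Noct members, at 0.58 to 0.64, stood beside Noct probe sets at -0.23 (99535_at, adjusted p = 0.455) and 0.27 (101787_f_at, adjusted p = 0.367) and a Sgip1 probe set at 0.50 (adjusted p = 0.419), and Zfp960/Zfp97, at 0.82, beside a Zfp97 probe set at 0.14 (adjusted p = 0.834). Mndal/Ifi211/Ifi205/Ifi204, not called at -0.27, stood beside an Ifi204 probe set at -0.81 (adjusted p = 0.00759). That probe set read 35884 and 32816 with poly IC plus ethanol, 55118 and 66457 with poly IC and 5547 in the naive array, where the member read 84730 and 70408 with poly IC plus ethanol, 95031 and 91154 with poly IC and 26860 in the naive array.

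Opposite calls came from the Noct and kappa names. The 3 members naming Cog6 with Noct fell between poly IC and naive by 0.44 to 0.60, calls that median centring removed, whereas the one-symbol Noct probe set 99535_at rose by 2.55 (adjusted p = 2.54e-05). It read 9098 and 8374 with poly IC plus ethanol, 11424 and 9191 with poly IC and 1548 in the naive array. A second Noct probe set, 101787_f_at, stood at -0.36 and that of Sgip1 at 0.14, neither called. The bright kappa member rose by 0.63 while the one-symbol probe sets of Igkv6-23 (-0.55) and Igkv8-30 (-0.83) fell.

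In other pairs the sizes differed. Acrbp/Ing4, an acrosin-binding protein and a subunit of histone acetyltransferase complexes from neighbouring genes of chromosome 6, read 1220 and 1444 with poly IC against 6718 in the naive array (-2.14 ± 0.23), and the Ing4 probe set was dim, with 589 and 487 with poly IC against 498 in the naive array (0.07). The other Acrbp/Ing4 probe set, 161148_f_at, stood at -0.36 (adjusted p = 0.722), with arrays of a group far apart. Iglc1/Iglv1 fell by 2.02 where a dim Iglc1 probe set stood at -0.01. Hba-a2/Hba-a1 rose by 1.57 and the Hba-a1 probe set by 4.42, while the Hbb member rose by 4.92 and the Hbb-b2 probe set by 3.10.

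**Figure D5:**
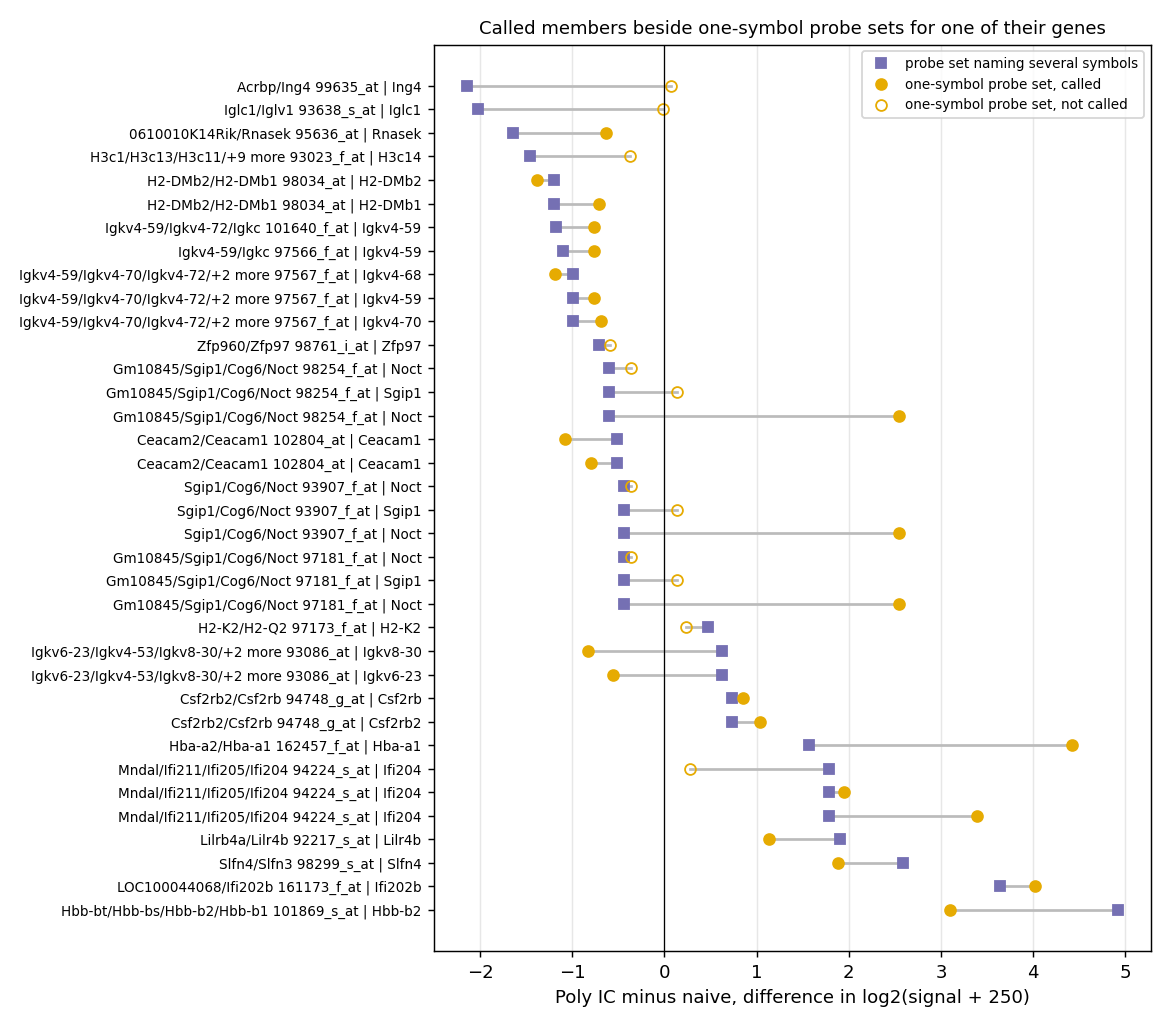
Poly IC minus naive differences in log2(signal + 250) of called members (squares) beside one-symbol probe sets for a gene they name (circles, filled where called), 1 row per pair. The 3 rows joining members that name Noct to the one-symbol Noct value of 2.55 and the 2 rows of the kappa member at 0.63 cross zero with both ends called.

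Members with the same names did not always read alike. In 34 symbol sets held by more than 1 member (73 members), all members were called the same way between poly IC and naive in 6, none in 16 and only some in 12, and opposite calls occurred in 0. Between poly IC plus ethanol and poly IC the counts were 2, 30, 2 and 0. The median range within a set was 0.37 for poly IC against naive and 0.11 for poly IC plus ethanol against poly IC. The 3 members of Gm10193/Zfp706 differed by 0.61, 0.16 and 0.14 between poly IC plus ethanol and poly IC, and the first of them alone was called.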

How the data were processed

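Probe set signals of 5 Affymetrix MG-U74Av2 arrays were used, 1 array per sample, grouped by their titles. The deposited values are intensities on a linear scale; per the labels, the authors computed them with Microarray Suite 5.0 and scaled each array globally to a target of 2500, and Data Mining Tool 3.0 is named as well. Global scaling fixes each array's mean, so a broad change in RNA content is not visible. The number of arrays limits the precision.

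Gene symbols came from the platform annotation and were updated through Entrez IDs in a RefSeq table of GRCm38.p6 (559 of 580 members' IDs matched). All 7514 non-control probe sets with a mean signal of 500 or more were fitted together as log2(signal + 250) with 3 group means in limma 3.58.1 (R 4.3.3; lmFit, eBayes with an intensity trend). The Benjamini-Hochberg adjustment of two-sided p-values covered all 7514, and a call is an adjusted p under 0.05. The fit left 2 residual degrees of freedom and a prior of 6.81. The offset compresses differences of dim probe sets. A lower group mean below the brightest of 19 unspiked controls (299.6 to 443.8 by array) gives a lower bound of the fold. The fit was also run on simulated data built from these 7514 probe sets. No protein sequences were used here.

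Named members are, per comparison, the 10 called ones with the largest positive and the 10 with the largest negative difference and, per list, the 3 brightest. Other members, such as further probe sets of a named set, members beside the threshold and some examples of a list (H2-T3/H2-T18, Ighv1-53/Ighv1-72/Ighm, Supt4b/Supt4a, Ly6c2/Ly6c1, Try10/Gm5409/Try4 and the histone and Nduf names), were chosen after their values were seen. The members and lists were chosen with earlier results of these data known. Same-numbered pools were not paired: the correlation of replicate differences was 0.04 over 7514 probe sets. Alternatives were the offset, the filter, median centring, quantile normalization, the variance prior, each treated array left out and a replicate block. Promoter identities are from global alignment.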

Additional observations from a re-analysis of the deposited data

How the results depend on the processing

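Members called between poly IC plus ethanol and poly IC numbered 19 in the reported setting, 6 without the signal filter (12422 probe sets tested) and 0 with a variance prior without trend, and 2 to 34 with 1 treated array left out. The replicate block, which only uses shared numbers, called 19 (10 higher, 9 lower), and the same 4 arrays without it, chosen after seeing the data, 18. Median centring called 17 (6 higher, 11 lower) and quantile normalization 14 (8 higher, 6 lower). None of the 19 calls was kept under all alternatives. In each comparison with naive, leaving out an array of the group not compared changed the count through the spread estimate alone. Between poly IC and naive 87 members were called, 51 to 109 with 1 array left out, and 62 to 90 otherwise (quantile normalization, 30 higher and 60 lower); 30 of 44 named calls were kept under all alternatives. Between poly IC plus ethanol and naive 55 were called, 34 without the filter, 28 without the trend and 43 to 66 with 1 array left out; 20 of 36 named calls were kept. No named call changed sign, but Gm5620/Tuba1c/Tuba1b/Tuba1a, at 0.05 and not called between poly IC and naive, was called at -0.37 under quantile normalization. The causes were not tested. Signals near the unspiked controls, such as Zfp808/Zfp934 with poly IC, give bounds only.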
